A study of Mus musculus with 4 samples.

Results

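The data are 2 small RNA libraries of mouse Tumor Initiating hepatoCytes (TICs), 1 carrying a control hairpin and 1 carrying a hairpin against H19, described here by how each microRNA hairpin was read: which arm, whether as the annotated sequence, and from which gene copy. All microRNA precursors with at least 100 reads in 1 of the libraries were taken, which gave 274 of the 811 precursors listed. They held 99.9% of the reads in each library. The series holds 4 libraries, 2 of mRNA and 2 of small RNA, all from cells of strain C57BL/6, with 1 library of each kind for the control and 1 for the knockdown. The labels name no treatment beyond the hairpins and no age, and they do not say whether the cells are 1 clone. With 1 library a side there was no replicate check, so no test was made, and a difference here is one between 2 libraries, not between 2 conditions. Intervals are exact 95% Clopper-Pearson intervals, or the matching exact interval for a ratio of counts. They cover counting error only, since reads copied by PCR without molecular identifiers are not independent molecules.

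A microRNA is cut from a hairpin transcript first by Drosha in the nucleus and then by Dicer in the cytoplasm. The short duplex that remains has a strand from the 5' arm (5p) and a strand from the 3' arm (3p), and an Argonaute protein keeps 1 of them, favouring the strand whose 5' end is less tightly paired and begins with U. The seed, near the 5' end of the kept strand, sets which messages are bound, so arm choice changes the targets of a locus, and a shift of the 5' end changes the seed. Trimming and tailing at the 3' end give length variants (isomiRs) with the same seed. H19 is a long noncoding RNA of fetal liver that also hosts mir-675, and it has been described as a sponge for let-7.

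The H19 message did not separate the libraries. The mRNA tables listed 43 H19 reads for the control and 40 for the library with the knockdown label, a ratio of 0.931 (interval 0.589 to 1.46), and mir-675 was listed for neither library, where a count of 0 allows at most 3 reads. Directions below are therefore those of the library that carries the knockdown label, called here the H19-labelled library. Small RNA depth was 8203448 reads for the control and 11859207 for the H19-labelled library, so the latter had the smaller counting error. Of the liver and blood markers, mir-192 had 15993 and 23164 reads, mir-155 had 14009 and 18983, mir-223 had 3 and 2 and mir-451a had 4 and 11. For mir-122, the dominant microRNA of mature hepatocytes, and for mir-142 of blood cells, no reads were listed in either table. The mRNA libraries held Alb at 129 and 88 reads and Hnf4a at 2373 and 2764, with Apob, a hepatocyte apolipoprotein, at 37279 and 30259. Of the duct and progenitor genes, Krt19 had 29919 and 39984 reads and Sox9 122 and 109, so neither set moved in 1 direction. In such bulk libraries fewer cells of a type and less RNA per cell cannot be told apart.

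The sequences on which the results turn are given here, from RefSeq (GRCm38.p6), which matched 245 of the 274 precursors. Lower case is the mature strand 5' to 3' and capitals mark the seed, bases 2 to 8. The first set holds both arms of hairpins whose arm ratio differed most, or whose more abundant arm differed, between the libraries. mir-28a lies at chr16:24827868-24827889 (5p) and chr16:24827908-24827929 (3p), mir-15b at chr3:69009775-69009796 and chr3:69009813-69009834, mir-574 at chr5:64970328-64970350 and chr5:64970364-64970385, mir-664 at chr1:185242975-185242995 and chr1:185243012-185243033, mir-674 at chr2:117185151-117185172 and chr2:117185186-117185207, mir-671 at chr5:24592132-24592154 and chr5:24592171-24592191, and mir-18a at chr14:115043867-115043889 and chr14:115043908-115043929, all on the plus strand. mir-350 lies on the minus strand at chr1:176772382-176772400 and chr1:176772342-176772363.
miR-28a-5p: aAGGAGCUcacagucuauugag
miR-28a-3p: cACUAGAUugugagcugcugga
miR-15b-5p: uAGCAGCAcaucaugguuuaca
miR-15b-3p: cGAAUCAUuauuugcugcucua
miR-574-5p: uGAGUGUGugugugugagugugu
miR-574-3p: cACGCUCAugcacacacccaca
miR-664-5p: cUGGCUGGggaaaaugacugg
miR-664-3p: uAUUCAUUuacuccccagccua
miR-350-5p: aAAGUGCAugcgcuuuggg
miR-350-3p: uUCACAAAgcccauacacuuuc
miR-674-5p: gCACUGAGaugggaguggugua
miR-674-3p: cACAGCUCccaucucagaacaa
miR-671-5p: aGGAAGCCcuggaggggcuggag
miR-671-3p: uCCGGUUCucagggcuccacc
miR-18a-5p: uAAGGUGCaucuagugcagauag
miR-18a-3p: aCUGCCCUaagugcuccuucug

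The second set holds strands read mostly as annotated (miR-22-3p, let-7f-5p, miR-16-5p) and strands read mostly as variants (the miR-30 strands). They lie at chr11:75463772-75463793 (mir-22, plus), chr13:48537889-48537910 (let-7f-1, minus), chr14:61631936-61631957 (mir-16-1, minus), chr1:23272274-23272295 (mir-30a, plus), chr4:120772660-120772681 (mir-30e, minus) and chr4:120769584-120769606 (mir-30c-1, minus). The 3 miR-30 strands share their seed.
miR-22-3p: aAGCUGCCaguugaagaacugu
let-7f-5p: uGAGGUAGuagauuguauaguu
miR-16-5p: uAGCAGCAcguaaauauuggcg
miR-30a-5p: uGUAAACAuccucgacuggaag
miR-30e-5p: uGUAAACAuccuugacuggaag
miR-30c-5p: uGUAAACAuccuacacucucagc

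The third set shows copies that could be told apart by their reads (mir-92a, mir-128) and copies that could not (mir-26a). Here capitals are the hairpin bases that follow the mature end, where RefSeq gives the same mature strand for both copies. The mature strands lie at chr14:115044476-115044496 (mir-92a-1, plus) and chrX:52741854-52741874 (mir-92a-2, minus), chr1:128202404-128202424 (mir-128-1, plus) and chr9:112118644-112118664 (mir-128-2, minus), and chr9:119031811-119031832 (mir-26a-1, plus) and chr10:126995543-126995564 (mir-26a-2, plus).
mir-92a-1 3p: uauugcacuugucccggccugUUGA
mir-92a-2 3p: uauugcacuugucccggccugAGGA
mir-128-1 3p: ucacagugaaccggucucuuuUUCA
mir-128-2 3p: ucacagugaaccggucucuuuCCCU
mir-26a-1 5p: uucaaguaauccaggauaggcuGUGC
mir-26a-2 5p: uucaaguaauccaggauaggcuGUGU

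Each library put most of its arm reads on 5p strands, and a single hairpin, mir-22, supplied most of the rest. The 3p share of all arm reads was 42.0% in the control and 43.6% in the H19-labelled library, and without mir-22 it was 21.6% and 21.3%. mir-22 alone had 1953410 and 3137270 reads on its 3p arm against 1260 and 1501 on its 5p arm. mir-27b, of the miR-23b cluster, was likewise read from its 3p arm, with 479955 and 699073 reads against 947 and 1636. mir-21a, an oncogenic microRNA that represses Pdcd4, was read from its 5p arm, with 1447555 and 1986031 reads against 42756 and 52933 on the 3p arm. mir-182, with 358558 and 528597 reads on the 5p arm, had 55 and 92 on the other. These 4 precursors had the same main arm in both libraries. mir-6240, the seventh in abundance, had none to speak of, with 75 and 79 arm reads of 305426 and 235052.

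Arm choice could be compared for 224 of the 274 precursors, those with at least 100 arm reads in each library, and the other 50 fell below that. It is given as the 5p share, the reads on the 5p arm as a percentage of the reads on both arms. The 5p arm was the more abundant in 126 precursors in the control and in 128 in the H19-labelled library. Most hairpins gave nearly all reads from 1 arm, with 102 and 100 precursors at 90% or more 5p and 79 and 76 at 10% or less. The remaining 43 and 48 were read from both arms to at least 10%.

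The 5p share was nearly the same in the 2 libraries for most precursors. The median absolute difference was 0.268 percentage points, and 202 of 224 precursors lay within 5 points. A difference of at least 10 points was reached upward in 2 precursors (0.893%) and downward in 1 (0.446%), and of at least 5 points by 11 in each direction (4.91% each). Intervals of the 2 libraries were apart in 45 precursors (20.1%). Differences were concentrated in hairpins read from both arms. Among the 43 precursors with a control 5p share between 10 and 90% the median absolute difference was 4.31 points and 20 differed by 5 points or more, whereas among the 181 with a dominant arm it was 0.133 points and 2 did. A share near 0 or 100% has less room to move in points, so the 2 classes are not on an equal footing.

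**Figure D1:**
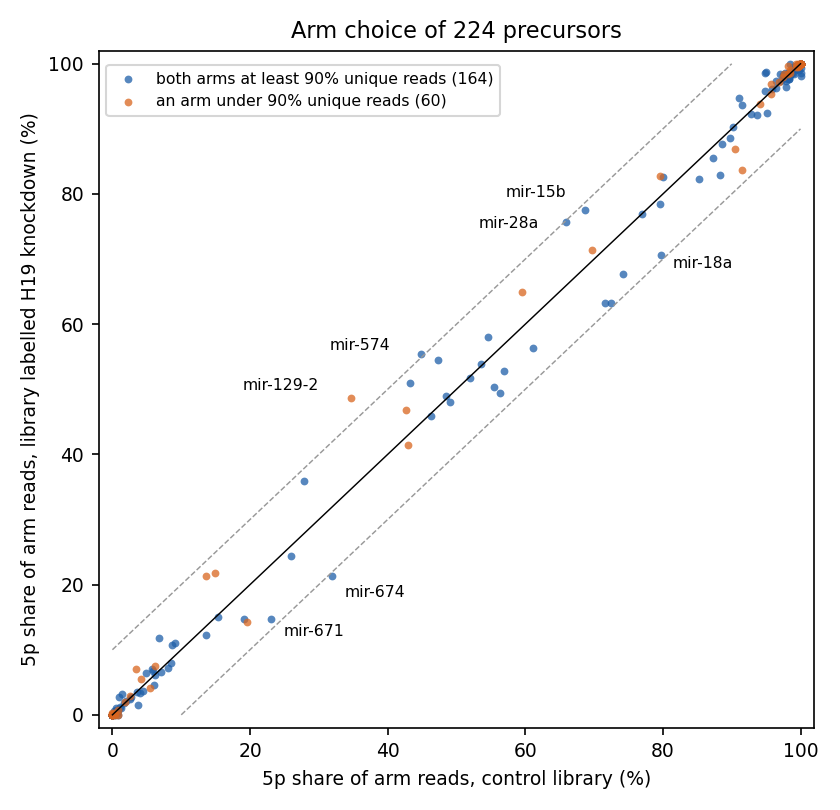
The 5p share of arm reads (%) in the control library (horizontal) and in the H19-labelled library (vertical) for 224 precursors, 1 point each. The solid line marks equal shares and the dashed lines a difference of 10 points; orange points have an arm with under 90% unique reads. Most points sit on the line at its 2 ends, and the 3 outside the dashed lines are mir-129-2, mir-574 and mir-674.

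mir-28a, which lies in an intron of Lpp, was the most deeply read hairpin with a difference near the 10-point limit. The control held 6896 reads of its 5p arm and 3554 of its 3p arm, and the H19-labelled library held 14107 and 4527. Its 5p share was 66.0% (65.1 to 66.9) and 75.7% (75.1 to 76.3). Scaled to the library totals by TMM, 5p reads were 1.45 times those of the control (1.41 to 1.495) and 3p reads 0.905 times (0.865 to 0.945). The arms of a single hairpin thus differed in opposite directions. Counted from exact reads alone, the difference in 5p share was 12.6 points instead of 9.72.

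mir-15b, a member of the miR-15 and miR-16 family that represses Bcl2 and cyclins, had a difference of like size in all reads and almost none in exact reads. It held 2268 reads of 5p and 1034 of 3p in the control, and 3599 and 1041 in the H19-labelled library. The 5p share was 68.7% (67.1 to 70.3) and 77.6% (76.3 to 78.8). Among exact reads the difference was 0.717 points instead of 8.88. The exact share of the same 5p arm fell from 1967 of 2268 reads (86.7%) to 2817 of 3599 (78.3%). After scaling, 5p reads were 1.13 times those of the control (1.07 to 1.19) and 3p reads 0.715 times (0.655 to 0.780). The difference in 5p share was thus present in all reads and nearly absent in the exact ones. Exact reads were 93.8% 5p in the control and 94.6% in the H19-labelled library, which left less room for a difference in points.

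The 4 precursors whose more abundant arm differed (1.79% of 224) all had arms near equality. mir-574 had 268 5p and 330 3p reads in the control against 413 and 332, so its 5p share was 44.8% (40.8 to 48.9) and 55.4% (51.8 to 59.0). mir-664 had 638 and 835 reads against 1046 and 1004, a 5p share of 43.3% (40.8 to 45.9) and 51.0% (48.8 to 53.2). mir-350 had 440 and 489 against 684 and 570, or 47.4% (44.1 to 50.6) and 54.5% (51.7 to 57.3). In all 3 the interval of 1 library lay apart from that of the other, though the interval for mir-350 in the control and that for mir-664 in the other library include equal arms. The change of main arm was not seen in exact reads of mir-350 or mir-574. mir-350 had 0 exact 5p reads in either library, and for mir-574 5p took 65 of 266 exact reads (24.4%) in control cells and 94 of 286 (32.9%) in the others. mir-3061 went the other way, from 56.3% (49.1 to 63.3; 112 and 87 reads) to 49.4% (44.2 to 54.7; 179 and 183 reads), with overlapping intervals.

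Among hairpins that shifted toward 3p, mir-674 moved most. It had 145 5p and 310 3p reads in the control and 164 and 604 in the H19-labelled library, a 5p share of 31.9% (27.6 to 36.4) and 21.4% (18.5 to 24.4). mir-671 had 299 and 997 reads against 351 and 2035, or 23.1% (20.8 to 25.5) and 14.7% (13.3 to 16.2). Both had more 3p reads after scaling, 1.38 times (1.205 to 1.59) for mir-674 and 1.45 times (1.34 to 1.57) for mir-671. mir-18a, of the miR-17-92 cluster, differed instead in its 5p reads, which were 850 and 750, 0.627 times after scaling (0.567 to 0.692), beside 217 and 313 of the 3p arm. Its 5p share was 79.7% (77.1 to 82.0) and 70.6% (67.7 to 73.3). mir-34b, a p53 target gene, went from 71.5% (68.4 to 74.6) to 63.3% (60.5 to 66.0), and mir-361 from 74.3% (72.5 to 75.9) to 67.7% (66.2 to 69.3). mir-33, which sits in Srebf2 and represses Abca1, had 72.4% (67.6 to 76.9) and 63.2% (57.8 to 68.4), with overlapping intervals. The 5p ratios of mir-674 and mir-671 were 0.804 (0.638 to 1.01) and 0.834 (0.712 to 0.976), so in mir-671 both arms contributed.

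**Figure D2:**
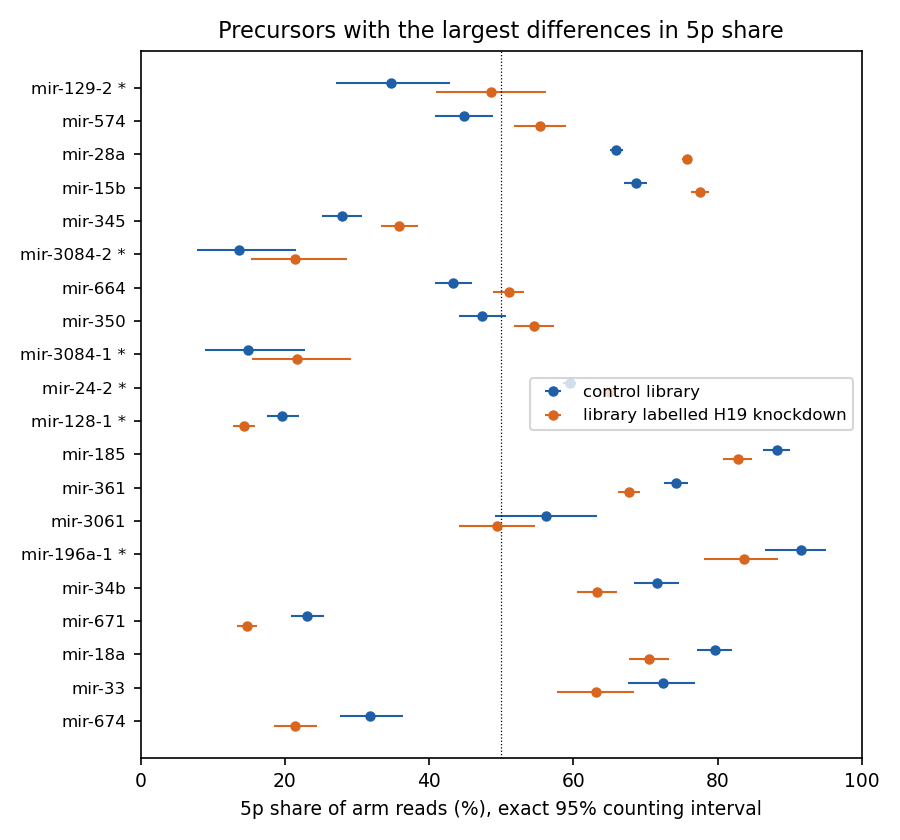
The 5p share of arm reads (%) with exact 95% counting intervals for the 10 precursors with the largest rise and the 10 with the largest fall between the libraries, control in blue and the H19-labelled library in orange. A star marks precursors with an arm under 90% unique reads, and the dotted line marks equal arms. The narrowest intervals belong to mir-28a and mir-24-2, and mir-574 crosses the line from 44.8% to 55.4%.

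Some of the largest differences involved an arm shared with another gene copy and are limited by how shared reads were divided, as described below. mir-129-2 had the largest of all, from 34.7% (27.1 to 42.9) to 48.6% (41.0 to 56.2), on 52 5p and 98 3p reads against 86 and 91, and its intervals overlapped. Its 5p reads could not be assigned to it rather than to mir-129-1. mir-24-2 (59.5% and 65.0%), mir-128-1 (19.6% and 14.3%), mir-196a-1 (91.5% and 83.7%) and mir-125b-2 (42.7% and 46.9%) are subject to the same limit. In all, 60 of the 224 precursors had an arm with under 90% unique reads.

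Of the 6 hairpins with the most even arms among those with at least 1000 arm reads in each library, 4 kept them within 1 point in all reads. mir-423 had 9271 5p and 9644 3p reads in the control and 17977 and 19429 in the H19-labelled library, while its total rose 1.38 times after scaling. mir-106b, which sits in Mcm7, had 52.0% (50.8 to 53.3) and 51.7% (50.7 to 52.7), mir-872 had 53.6% (52.3 to 54.8) and 53.8% (52.8 to 54.9), and mir-455, in Col27a1, had 48.4% (45.5 to 51.3) and 49.0% (46.4 to 51.6). Among exact reads alone mir-455 differed by -6.44 points (82.0% and 75.5% 5p) and mir-423 by 1.75 (41.2% and 42.9%), while mir-872 stayed near equality (50.8% and 50.3%). mir-106b was even in all reads only, since 5p took 1733 of its 1795 exact reads (96.5%) in control cells and 2664 of 2747 (97.0%) in the others. The other 2 of the 6, mir-664 and mir-125b-2, differed by 7.71 and 4.18 points.

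The first base of the mature strand, which the arm choice did not use, separated main from minor arms. In the 170 precursors with both strands in RefSeq, 98 main arms (57.6%) and 27 minor arms (15.9%) began with U. The gap was wider where 1 arm took 90% or more of the reads, with 84 of 132 main arms (63.6%) against 16 of 132 minor arms (12.1%). Where both arms were read, U began 14 of 38 main arms (36.8%) and 11 of 38 minor arms (28.9%). Among the strands printed above, mir-15b, mir-18a, mir-671, mir-350, mir-574 and mir-664 have U at the start of 1 arm only. In mir-671, mir-15b and mir-18a that arm was the more abundant in both libraries, in mir-350 and mir-664 in the control only, and in mir-574 in the H19-labelled library only. These are counts over hairpins, some of which are related genes, and are given as a description.

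Exact reads, those matching the annotated mature strand end to end, made up 52.7% of the control arm reads and 54.5% of those in the H19-labelled library. That total rested on mir-22, whose 3p arm was exact in 1863640 of 1953410 reads (95.4%) and 2980455 of 3137270. Over all 3p reads the exact share was 68.8% and 70.2%, and without mir-22 it was 25.1% and 24.2%, below the 41.0% and 42.3% of 5p reads. Per arm, 300 of the 548 arms of the 274 precursors had at least 100 reads in each library, with a median exact share of 34.8% and 35.2%. 5p arms had a median of 42.5% and 42.0%, and 3p arms of 29.8% and 29.3%. For most microRNAs in these cells, then, the annotated strand was a minority of the reads.

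The exact share varied far more between strands than between libraries. It lay within 5 points in 258 of the 300 arms, while between arms it ran from 0 to over 95%. A difference of at least 10 points was reached upward by 5 arms (1.67%) and downward by 4 (1.33%), of at least 5 points by 17 (5.67%) and 25 (8.33%), and intervals were apart in 62 (20.7%). No arm with at least 1000 reads in each library differed by 10 points.

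Families with 1 seed were alike in some cases and split in others. The 11 arms with the let-7 seed (let-7a to let-7i and mir-98), which repress Lin28, Hmga2 and Ras, were 59.5 to 84.2% exact in the control and 60.7 to 82.5% in the H19-labelled library. The 4 miR-30 arms with a RefSeq entry stood at the other end. miR-30a-5p was exact in 8060 of 338720 reads (2.38%) and 9336 of 497019 (1.88%), miR-30e-5p in 841 of 111399 (0.755%) and 825 of 141149 (0.584%), and miR-30c-5p at mir-30c-1 in 711 of 12777 (5.56%) and 1095 of 25079 (4.37%). mir-30d, whose 5p arm is not among the RefSeq entries used, had 4.32% and 3.58%. The exception, picked out after its values were seen, was mir-30b, with 10784 of 12233 (88.2%) and 18343 of 20259 (90.5%). So 4 members of the family were read almost wholly as variants and 1 as annotated, in both libraries.

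The miR-15 and miR-16 family, the miR-26 family and the pair of miR-103 and miR-107 were split in the same way. miR-16-5p was 89.2% and 90.5% exact at mir-16-1, miR-15b-5p 86.7% and 78.3%, and miR-15a-5p 30.0% and 23.2% (1320 of 4403 and 1403 of 6059 reads), although the 3 share the seed shown above. mir-26a-1 was 84.8% and 83.9% exact and mir-26b 10.3% and 10.5%. mir-103-1 and mir-103-2 lay at 57.3 to 57.6% in the control and mir-107 at 5.10% (60 of 1176 reads). This last contrast is limited by shared reads. In the control 636 of the 1176 reads of mir-107 matched it alone, and 0.105% and 0.694% of those at mir-103-1 and mir-103-2. In the family of miR-130 and miR-301 the range was 22.7 to 89.9%, and in the miR-29 family 34.2 to 89.7%. mir-15a and mir-26b were picked out after their values were seen. Members of a seed family thus need not share their exact share.

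**Figure D3:**
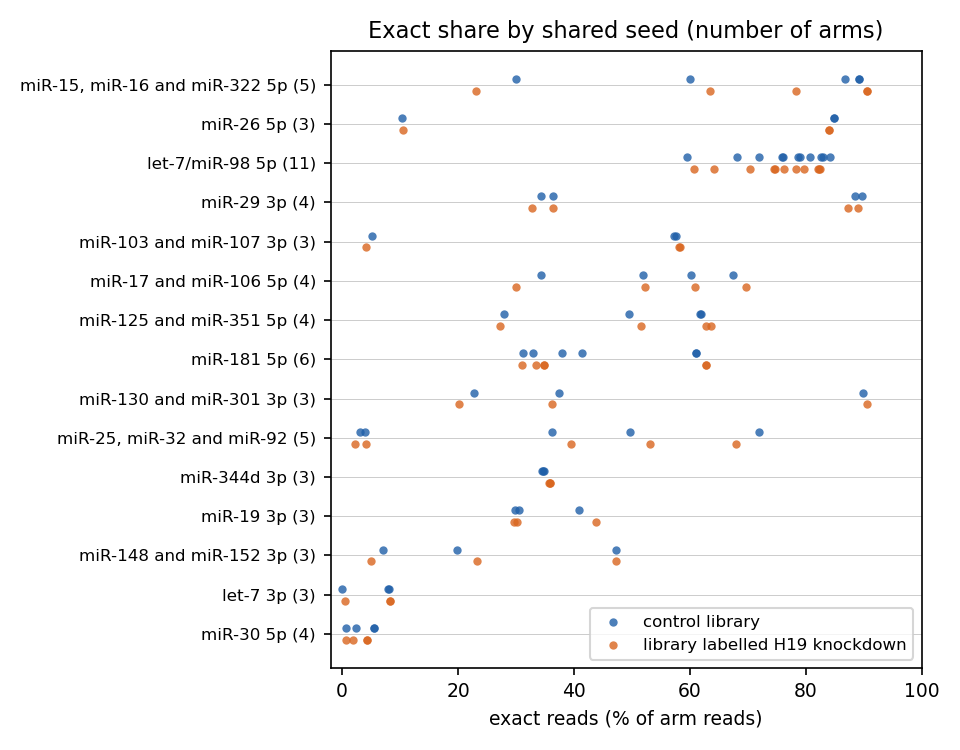
Exact reads as a percentage of arm reads for each arm of the 15 seed groups with at least 3 arms, control in blue and the H19-labelled library in orange, ordered by the control median. The let-7 5p arms lie together between 59.5 and 84.2% in the control and the miR-30 5p arms between 0.755 and 5.56%, while the miR-26, miR-29 and miR-15, miR-16 and miR-322 groups are spread.

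Other abundant strands lay between. miR-21a-5p was exact in 33.2% and 34.2% of its reads, miR-27b-3p in 18.6% and 16.9%, miR-182-5p in 28.9% and 30.2%, miR-10b-5p in 11.9% and 13.3%, miR-31-5p in 70.9% and 72.8%, and miR-191-5p in 82.8% and 81.9%. Among arms with at least 1000 reads in each library the highest shares, beside mir-22 3p, were those of mir-92a-1 5p (95.4% and 95.7%), mir-34c 5p (91.2% and 91.5%) and mir-301a 3p (89.9% and 90.6%). The arms of a hairpin differed too. In the 80 precursors with both arms deep enough, the more abundant arm had the higher exact share in 47 and the minor arm in 33, with medians of 38.2% and 30.7% in the control. miR-21a-3p, at 5.17% and 5.16%, was well below its 5p partner.

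The arms whose exact share differed most between libraries were shallow. mir-374b 5p fell from 57 of 126 reads (45.2%, interval 36.4 to 54.3) to 55 of 217 (25.3%, 19.7 to 31.7), and mir-128-1 5p rose from 79 of 254 (31.1%, 25.5 to 37.2) to 138 of 305 (45.2%, 39.6 to 51.0). mir-1943 5p went from 62 of 178 (34.8%, 27.9 to 42.3) to 87 of 184 (47.3%, 39.9 to 54.8), with overlapping intervals. Among deep arms mir-15b 5p, described above, moved by -8.46 points and mir-15a 5p by -6.82 (30.0% to 23.2%), both with intervals apart, while mir-16-1 5p moved by 1.32. The pair of mir-15 genes thus had more variant reads in the H19-labelled library and mir-16 did not.

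Reads shared by several hairpins were divided evenly in the deposited tables. Of the mature strands with several copies, 28 had at least 20 shared exact reads, and in all 28 the copies' shared exact counts were equal to within 1 read, 22 of them differing by exactly 1 in a library. let-7a-1 and let-7a-2 had 19444 and 19443 such reads in the control. A copy's own reads are therefore its unique reads plus an equal part of the common pool, and a level is meaningful only for the sum over copies. Summed so, let-7f 5p had 97110 and 183309 reads, mir-16 5p 110602 and 161658, mir-181a 5p 150158 and 251030, and mir-103 3p 20978 and 29076.

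The unique share, the percentage of arm reads that match only 1 hairpin, was nearly all or nothing. It was 99% or more in 235 of the 300 arms, under 1% in 37 and between in 28, and 89.9% and 89.2% over all arm reads. It barely differed between the libraries. No arm differed by 10 points in either direction (0% and 0%), and 1 arm differed by 5 points upward (0.333%), mir-196a-2 5p, at 31.9% and 38.0%. The division followed the copies that RefSeq gives. Of 214 arms whose mature strand RefSeq gives at 1 precursor, 5 had under 90% unique reads, and of 46 whose strand it gives at several, 41 had under 10%. Those 5 lower arms, named after their values were seen, were let-7a-1 5p (0.614%), mir-107 3p (54.1%), mir-1843a 5p (80.4%), mir-1843b 5p (86.6%) and mir-29c 3p (88.3%) in the control. Of these, let-7a-1 shares its reads with let-7a-2, which had no matched entry in the RefSeq set used, so it is not a true exception.

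Where copies could be told apart, the hairpin bases after the mature end differed. Among 20 pairs of hairpins with identical mature strands, the 9 that differ at the first base after the strand had a higher unique share per pair of 1.39 to 94.8%, with a median of 6.11%. The 5 pairs that share 1 base had at most 0.694%, and the 2 pairs sharing 2 bases, 2 sharing 3 and 2 sharing 4 had at most 0.00228%. In the printed copies, mir-92a-1 (UUGA after the strand) had 58658 unique of 61903 reads (94.8% in the control and 94.6% in the other library), and mir-92a-2 (AGGA) 1685 of 4933 (34.2% and 31.6%). Their exact counts were 2449 each in the control, all of them shared reads divided evenly. The resulting exact shares, 3.96% at mir-92a-1 and 49.6% at mir-92a-2, therefore describe neither copy. Summed over both copies the exact share was 7.33% in the control and 7.73% in the H19-labelled library. mir-128-1 (UUCA) had 499 unique of 1040 (48.0% and 46.9%) and mir-128-2 (CCCU) 14 of 550. let-7f-2 had 3056 of 50038 and let-7f-1 103 of 47072. For mir-26a-1 and mir-26a-2, which share their first 3 following bases, 0 of 87851 and 2 of 87863 reads were unique.

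**Figure D4:**
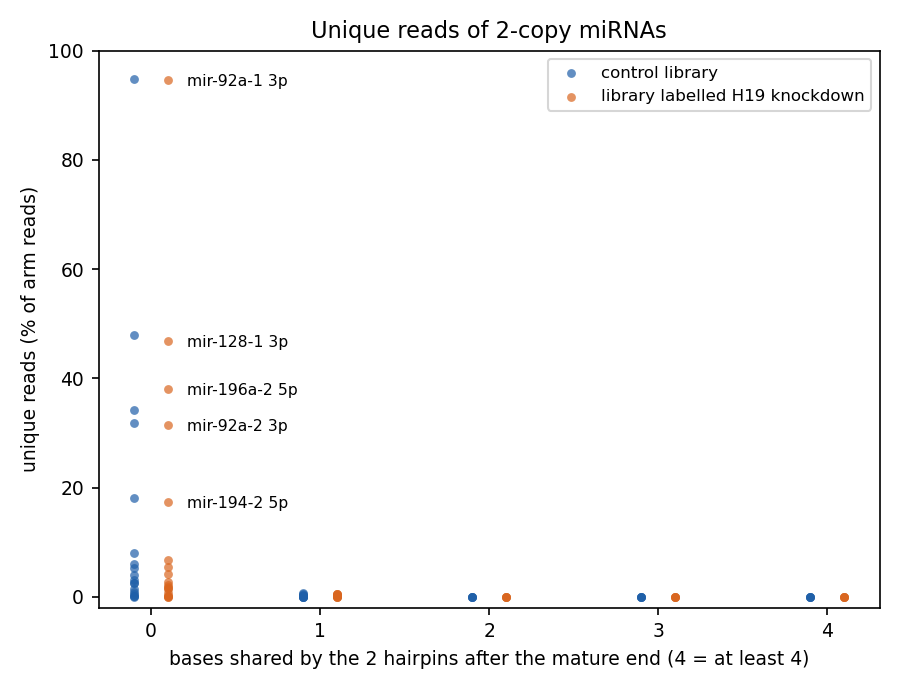
Unique reads as a percentage of arm reads for each copy in 20 pairs of hairpins with identical mature strands (vertical), by the number of bases the hairpins share directly after that strand (horizontal), control in blue and the H19-labelled library in orange. Copies above 1% occur only at 0 shared bases, with mir-92a-1 at 94.8% and 94.6%.

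mir-24 and mir-3074 are hairpins on opposite strands of the same DNA, and their reads could not be told apart. mir-24-1 (chr13:63301208-63301275, plus) overlaps mir-3074-1 (chr13:63301199-63301283, minus) by 68 bases, and mir-24-2 (chr8:84208815-84208921, plus) overlaps mir-3074-2 (chr8:84208825-84208907, minus) by 83. miR-24-3p, a strand of the miR-23/27/24 clusters, and miR-3074-5p are complementary over 20 of their 22 bases, and the seeds in capitals lie at opposite ends of the shared stretch.
miR-24-3p: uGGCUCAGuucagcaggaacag
miR-3074-5p: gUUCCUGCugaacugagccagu
The 3p arm of mir-24-1 had 4889 and 5360 reads and that of mir-24-2 had 4896 and 5359, with 0 exact and 0 unique reads in either library. The 5p arm of mir-3074-1 had 7091 and 7570 reads and that of mir-3074-2 had 7089 and 7572, of which 2 to 4 were exact and 0 unique. Reads outside the arms were also alike at the 4 hairpins, between 58 and 64 in the control. By contrast the 5p arm of mir-24-2 had 7194 and 9949 reads, all unique, and 4578 and 6212 of them exact. Whether the counting used strand is not given in the sources used here, so the arm choice of mir-24-2 and any level of miR-24-3p from these tables are uncertain.

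Reads outside both arms, those counted for a precursor but for neither arm, took 8.81% of the control reads and 6.61% of those from the H19-labelled cells. Their positions on the hairpin are not given. A single precursor, mir-6240, held 305351 and 234973 of these reads, and without it the shares were 5.29% and 4.72%. The median precursor had 3.32% and 3.14%, over 252 precursors with at least 100 reads in each library. A share at least 10 points higher was seen in 5 precursors (1.98%) and a lower one in 0 (0%), with 13 (5.16%) and 7 (2.78%) at 5 points. The 5, of which all but mir-5112 and mir-181d were named after their values were seen, were mir-5112 (39.6% and 53.04%), mir-2137 (11.4% and 23.8%), mir-3470a (75.1% and 86.4%), mir-452 (71.2% and 82.0%) and mir-181d (24.8% and 35.4%), and the intervals of the last 2 overlapped. A higher share was not always more outside reads. Unscaled, these were 2413 and 1370 at mir-5112 and 253 and 172 at mir-3470a. They were 178 and 258 at mir-2137, 109 and 173 at mir-452, and 40 and 69 at mir-181d. mir-222, which represses the cell cycle inhibitor Cdkn1b, was chosen after its values were seen, with 66.3% and 72.5% outside its arms.

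In some hairpins most reads outside the arms were exact matches, and in others few were. At mir-182, with 20.5% and 21.2% of its reads outside, 88898 of the 92461 outside reads in the control (96.1%) were in the deposited class of exact matches outside the arms, and at mir-222 this was 91.8%. At mir-92a-1, where 40.3% and 41.1% of reads lay outside, 172 of 42964 were exact (0.400%). mir-101b, with 51.2% and 51.3% of its reads outside, was between, with 46.1% and 47.0% of those exact. The make-up of the outside reads thus differed widely between hairpins.

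Precursor totals were compared after TMM scaling, which itself sets the ratios to centre near equality. After it 139 of 274 lay above and 135 below, with a median log2 ratio of 0.02. At 1.5-fold, 6 were higher (2.19%) and 35 lower (12.8%). At 2-fold, 1 precursor was higher (0.365%) and 19 were lower (6.93%). The 19 include mir-692-1, mir-692-2 and mir-692-3 as separate precursors, and levels were not recounted with 1 copy each. mir-3471-2, the higher one, had 36 and 121 reads, nearly all outside its arms, and met the read minimum through the library in which it was higher. Among the 252 precursors with at least 100 reads in both libraries 0 were 2-fold higher and 15 lower. The lowest included mir-6238 (914 and 310 reads), mir-5110 (600 and 206) and mir-682 (303 and 104), and all reads of the last 2 lay outside their arms. Of 185 precursors with under 10% of control reads outside the arms, 0 were 2-fold lower and the median log2 ratio was 0.04. Of 45 with 50% or more outside, 17 were 2-fold lower and the median was -0.69. The part of the outside reads in these lower totals was not tested further. Counted on arms alone, 6 precursors were 2-fold lower and 0 higher, so in those 6 the arm reads themselves were lower. That count took only precursors with at least 100 arm reads in 1 library. Precursors read outside their arms, such as mir-5110 and mir-682, could not enter it, so it is not comparable with the 19. Among hairpins read from their arms, mir-504 had 272 and 742 reads, mir-411 87 and 208 (also a member through the H19-labelled library only), and mir-200b, which represses Zeb1 and Zeb2, 431 and 1002, all under 2-fold after scaling.

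**Figure D5:**
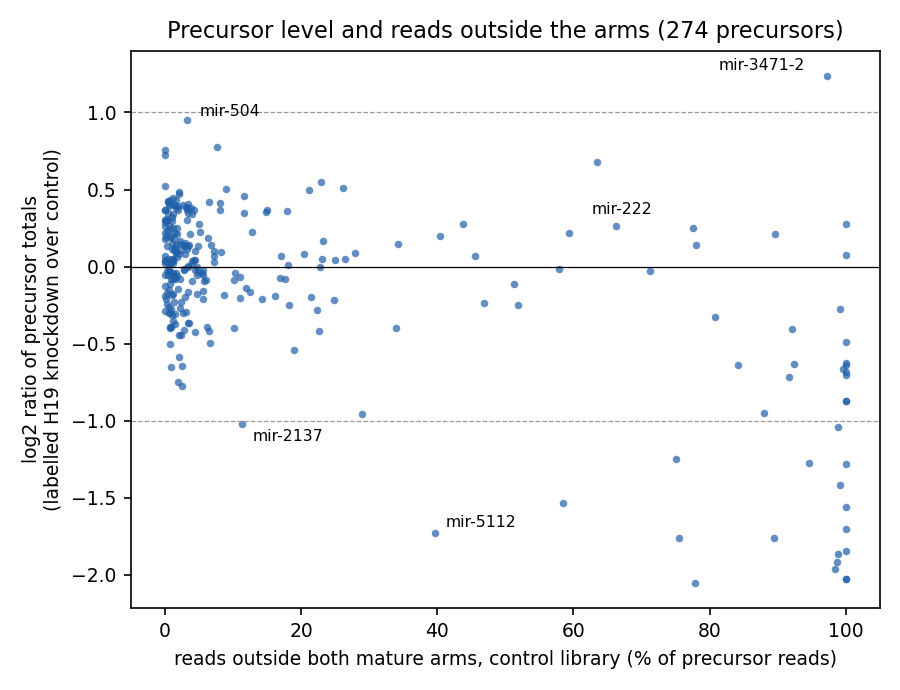
Log2 ratio of precursor totals, the H19-labelled library over the control after TMM scaling (vertical), by the share of control reads outside both arms (horizontal, %), for 274 precursors. Dashed lines mark 2-fold. Of 185 precursors under 10% none is 2-fold lower, and of 45 at 50% or more 17 are.

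The mRNA libraries gave the levels of the processing machinery. A list of 22 genes was used, which cut, export, load, tail, trim, edit or bind microRNAs or their precursors. Of the 22, 21 were listed and 20 had at least 100 reads in 1 library. Of these, 14 were above equality and 6 below (51.9% of all genes were above), with a median log2 ratio of 0.11 against 0.01 over 11412 genes, and 0 passed 2-fold (0.307% of all genes). Dicer1, the cytoplasmic nuclease, was farthest, with 819 and 1160 reads (log2 ratio 0.50). Drosha had 1407 and 1638 (0.22), its partner Dgcr8 2392 and 2143 (-0.16), and Ago2, the slicing Argonaute, 3616 and 4307 (0.25). The terminal uridylyl transferases Zcchc11 and Zcchc6 had 706 and 834 (0.24) and 2975 and 2861 (-0.06). Their relation to the exact or arm shares was not tested.

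At the edge of the read minimum, mir-206 (87 and 100 reads), mir-100 (69 and 102) and mir-8119 (102 and 48) were just inside, and mir-497a (46 and 99), mir-1946b (98 and 45) and mir-702 (78 and 95) just outside.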

How the data were processed

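Per the labels, small RNA of Tumor Initiating hepatoCytes was sequenced in 1 control and 1 H19 hairpin library. Per the series' design text, reads of 15 to 31 nucleotides were searched against miRBase 21. Trimmomatic 0.36 and STAR 2.5.2b are named in the submitters' processing notes, and the program that sorted small RNA reads into arms is not given in the sources used here. The deposited counts are whole reads per precursor and class: each arm, its exact and unique matches, and reads outside the arms. Arm and outside reads sum to the total in every line. The authors' mRNA tables are counts per gene. The small RNA total of the library labelled H19 knockdown exceeds the range of retained reads that the design text gives.

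Shares were computed with at least 100 reads in each library (Python 3.11.15, pandas 2.3.3, scipy 1.17.1) with exact 95% intervals, and named at 10 percentage points. Totals were scaled by TMM (edgeR 4.0.16, with DESeq2 1.42.0 size factors as an alternative), a count of 1 was added to each for ratios, and 2-fold was the size rule. Since each group had 1 library, no test was run. On simulated data with counting error alone, shares altered by 20 points were all named, as were 47.3% of 10-point alterations of the 5p share over 224 precursors and 0 of the unaltered. A 10-point alteration equals the size rule, so many fall short of it by counting error. The simulation held no variation between libraries, so it gives no rate of false naming for these data. Alternatives were exact or unique reads only, 1 copy per mature strand, read minimums of 20 and 1000, other size rules, arm reads only and other scaling. Named precursors are those with the most reads, the largest differences, the most even arms and the highest or lowest exact shares, plus fixed copy families; other names are marked. Members and lists were chosen with earlier results of these data known.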

Additional observations from a re-analysis of the deposited data

Results flagged for a closer look

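These 9 precursors lay below 100 reads in both libraries and were used in no comparison above. The rule asked for at least 20 reads in the library labelled H19 knockdown. It also asked for a scaled ratio of at least 2-fold, with its counting interval above 1. They thus passed the rule through the library in which they were higher. mir-5620 had 20 reads against 0 and mir-205, an epithelial microRNA, 29 against 3 (ratio 5.59, 2.13 to 35.2). mir-208a, of heart muscle, had 31 against 4 and mir-871 45 against 8. mir-1960 had 49 against 13, mir-7046 53 against 15, mir-6540 44 against 14, mir-466i 31 against 10 and mir-8094 20 against 4. They were picked among 537 precursors with low counts, of which 9 were lower by the mirrored rule, with the 20 reads asked of the control.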

How the results depend on the processing

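Of 63 recomputed counts, 33 stayed within 1.5 times the count reported and 30 did not; 12 recomputed medians stayed. With exact reads only, 154 precursors could be compared, of which 2 had a 5p share at least 10 points lower and 2 changed their main arm. Those 2 were not among the 4 described above. In exact reads mir-350 and mir-574 did not change their main arm, and mir-664 and mir-3061 fell below the minimum of 100 reads. With 1000 reads in each library, 0 precursors had a 5p share at least 10 points lower, 0 had one at least 10 points higher, and 1 changed its main arm. Exact shares gave 0 and 0 arms higher and lower, the outside share was higher in 2 precursors, and 0 totals were 2-fold higher and 6 lower. With 20 reads, 20 arms had a higher and 8 a lower exact share, 1 a higher unique share, 2 precursors a lower outside share and 10 a 2-fold higher total. At 5 points the counts were 11 and 11 for 5p share, 17 and 25 for exact share, 1 for higher unique share, and 13 and 7 for outside share. Requiring intervals apart left 1 higher 5p share, 1 higher exact share and 3 higher outside shares. Arm reads only, over precursors with at least 100 such reads in 1 library, gave 0 and 6 totals past 2-fold. The 1.5-fold rule on all reads gave 6 and 35. Most of these follow from the number of reads or the size asked for; the cause of the exact-only changes was not tested. Of 119 values of named precursors, 101 stayed within their counting error. These include all 28 exact share differences and all 30 log2 ratios, which had little room to move. The exact shares were recomputed on unique reads of arms that are nearly all unique. Most of the ratios were recomputed with another scaling, which shifts every precursor almost equally. Of the 5p share differences 43 stayed, 16 moved and 2 reversed. In 7 of the 119 values the sign changed, in 2 of them from a difference with intervals apart: the 5p share difference of mir-125b-2 was -0.0345 points in unique reads (4.18 in all), and that of mir-30a -2.23 in exact reads (0.13 in all). The others, in exact reads, were mir-455 (-6.44), mir-423 (1.75), mir-106b (0.43), mir-872 (-0.50) and mir-10b (-0.02). The exact-only difference of mir-350 was 0 points. Chosen after seeing the data, 100 reads in both libraries gave 0 totals 2-fold higher and 15 lower, and leaving out mir-6240 gave outside shares of 5.29% and 4.72%. Scaling to the total count or by DESeq2 size factors shifted the median log2 ratio by -0.04 and 0.04. No paired analysis was possible because each group has 1 library. Depth limits shares of arms near 100 reads, and the absence of replicates limits every difference.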
